A study of Homo sapiens with 12 samples.

Results

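The combination of all-trans retinoic acid (ATRA) and Corin was compared with the sum of the changes seen with each drug alone, gene by gene, in H3K4me2 peak lists from U-937 cells. U-937 is a human monocytic leukaemia line. For each protein-coding gene, the length covered by H3K4me2 peaks within 50 kb of its canonical start site was summed in each list. Non-additivity was the change with both drugs minus the change with ATRA minus the change with Corin, each change taken against DMSO. A value above 0 means that the combination covered more than both single changes predict when added, and a value below 0 that it covered less. Of 20046 protein-coding genes in the annotation, 19970 lay on the 23 chromosomes with peaks and have a value. The remaining 76 were left out.

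Cells were cultured for 24 hours with the vehicle DMSO, with 0.1 µM ATRA, with 0.1 µM Corin, or with 0.1 µM of each. All 12 libraries came from this 1 cell line, 8 with the H3K4me2 antibody (2 per treatment) and 4 of input DNA (1 per treatment). The deposited values are 1 pooled peak list per treatment, so there is no spread between replicates, and no test or error can be attached to any value below. DMSO peaks lay within 1 kb of the start site of 9 of 10 myeloid marker genes (all but MPO, myeloperoxidase) and of 1 of 15 markers of other cell types.

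H3K4me2 is a mark of promoters and enhancers, and LSD1 (KDM1A) in the CoREST complex removes it. Corin couples an LSD1 inhibitor to a class I histone deacetylase inhibitor and so blocks both enzymes of CoREST. ATRA binds retinoic acid receptors, which exchange co-repressors for co-activators such as p300 at their target genes, and it drives leukaemic myeloid cells towards differentiation.

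The DMSO list covered 73.4 Mb, the ATRA list 83.7 Mb, the Corin list 95.02 Mb and the combination list 108.5 Mb. These lists held 65172, 66385, 73997 and 83969 peaks in the same order. Sequencing depth is not recorded in the lists. A more deeply sequenced library yields more and longer peaks, and its part in the values below was not tested. Values with the lists made equal in peak number or in total length are given beside the total gene counts and the gene-list counts they move.

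Sequence is shown at 3 high loci, SMOX, LILRA5 and MLXIPL, so that the sites can be inspected. At each it is 200 bp around the summit of the strongest combination peak that touched no peak of any other list. Such peaks totalled 13957, 5025 and 4574 bp at these loci. Bases marked in the combination only contributed 24141, 17746 and 13009 bp there, so the sequences show a part of the values. All 3 sequences are read on the plus strand of GRCh38 (hg38), 5′ to 3′. Capitals mark matches on either strand to a retinoid receptor half-site (AGGTCA and its variants with G first, GGGTCA, with TT inside, AGTTCA, or with both, GGTTCA), to GAGGAAG (PU.1 type), to TTGCNNAA (C/EBP type) or to TGANTCA (AP-1 type).

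SMOX, chr20:4162924-4163123: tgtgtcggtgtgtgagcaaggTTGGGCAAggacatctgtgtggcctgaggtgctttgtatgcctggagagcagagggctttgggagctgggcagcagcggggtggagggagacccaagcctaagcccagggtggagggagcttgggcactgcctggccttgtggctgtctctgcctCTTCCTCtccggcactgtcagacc
LILRA5, chr19:54278057-54278256: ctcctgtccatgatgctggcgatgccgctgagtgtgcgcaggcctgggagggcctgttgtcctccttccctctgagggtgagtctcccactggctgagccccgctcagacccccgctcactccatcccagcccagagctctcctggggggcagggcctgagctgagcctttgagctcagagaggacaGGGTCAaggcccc
MLXIPL, chr7:73597517-73597716: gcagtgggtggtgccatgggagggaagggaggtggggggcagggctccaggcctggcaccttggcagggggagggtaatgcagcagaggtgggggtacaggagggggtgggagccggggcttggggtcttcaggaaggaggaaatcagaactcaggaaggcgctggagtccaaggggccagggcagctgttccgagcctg

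The SMOX sequence held 1 GAGGAAG and 1 TTGCNNAA match, the LILRA5 sequence 1 retinoid half-site, and the MLXIPL sequence none of these letters. Half-sites are common in windows of this length, at 39.8% of all 83969 combination peaks and 43.0% of the 13794 combination peaks that touched no other list. A pair of half-sites as a direct repeat with 2 bases between them was held by 1.18% of all combination peaks. This share was 1.62% of those that touched no other list and 2.50% (42 of 1679) of those that also lay within 50 kb of a gene past 3000 bp. With 5 bases between them it was rarer, at 64, 13 and 1 peaks of these sets. In the same order GAGGAAG was held by 8.47%, 9.40% and 8.81% and TTGCNNAA by 9.88%, 11.6% and 7.98%. The shares for TGANTCA were 5.80%, 6.14% and 5.18%. The last set was chosen through genes with high values, so its shares are descriptions only. Of the 5645 Corin peaks that touched no combination peak, 42.5% held a half-site and 1.22% a direct repeat with 2 bases between. When each sequence was divided into 10 pieces of 20 bases, every piece of the SMOX and MLXIPL sequences occurred once in the 23 chromosomes. Of the LILRA5 pieces, 3 occurred once and none more than 4 times.

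Over the 19970 genes, non-additivity had a mean of 276.6 bp, a median of 17 bp and an SD across genes of 1365 bp. It was above 0 at 50.8% of the genes, below 0 at 37.8% and 0 at 11.4%, nearly all of the last (2263 of 2271) having no peak in any list. The middle of the spread was narrow, the lower and upper quartiles lying at -323 bp and 741 bp. The tails were longer above 0 than below it. The 5th and 95th percentiles were -1509 bp and 2568 bp, the 1st and 99th were -2817 bp and 4894 bp, and the extremes were -11794 bp at SRGN and 19791 bp at SMOX. For comparison, the mean change against DMSO was 705 bp with ATRA, 1713 bp with Corin and 2694 bp with the combination, which compares with 2418 bp for the 2 single changes summed.

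**Figure D1:**
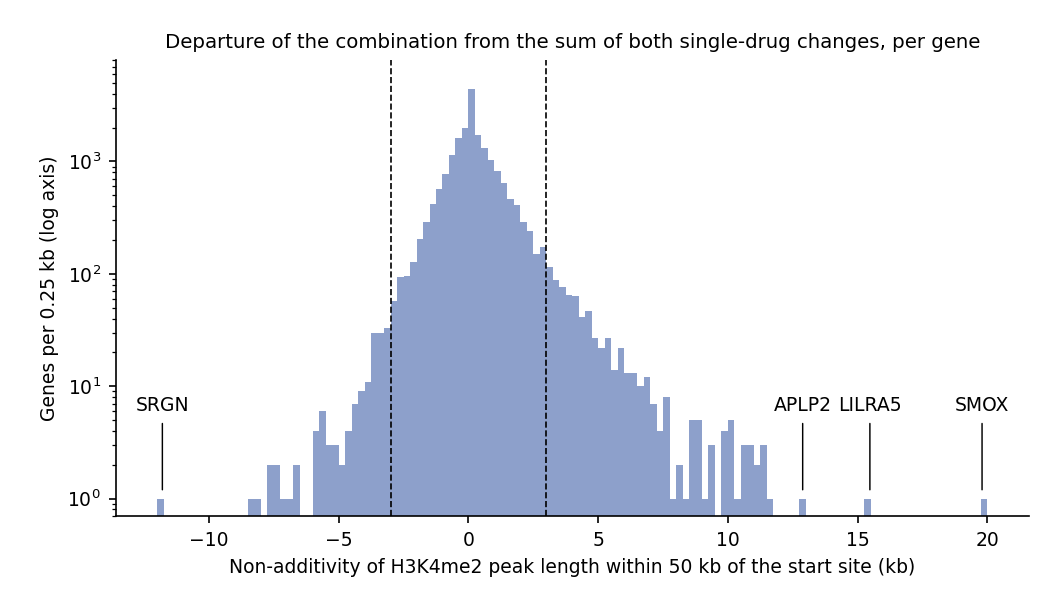
Histogram of non-additivity (kb, horizontal axis) over 19970 protein-coding genes, with genes per 0.25 kb on a log axis; dashed lines mark -3 and 3 kb. The upper tail is longer, ending at SMOX, and SRGN is the lowest gene.

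A distance of 3000 bp from additivity was used to count genes as super-additive or sub-additive, as a description and not as a test. At least 3000 bp was reached by 719 genes (3.6% of all genes) and -3000 bp or less by 153 genes (0.766%). Neighbouring genes share peaks, and these genes fell into 350 and 104 loci when start sites up to 100 kb apart were joined. Super-additive genes made up 82.5% of the genes past either limit. This share was 65.0% (469 and 253 genes) when the total length of each list was scaled to be equal, 68.6% (554 and 253 genes) with lists of equal peak number, and 67.9% (609 and 288 genes) when only peaks with −log10 q from 5 upwards were kept. Just inside and just outside the limits lay MAPKAPK3 at 3004 bp and OGDH at 2999 bp, and HIC1 at -3004 bp and PLXDC1 at -2997 bp.

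The value of a gene depends on which lists mark each base, so every marked base of the genome was assigned to 1 of 15 sets of lists. Of the 122.4 Mb marked in at least 1 list, 65.8% lay in sets that add nothing to non-additivity, chiefly the 62.3 Mb marked in all 4 lists. Bases marked in the combination only contributed 14.6 Mb. The largest opposite contribution, -9.15 Mb, came from bases marked with every drug treatment but not with DMSO, which each single drug counts once. Each list counts a base once, whatever its signal. A base gained with both single drugs therefore contributes negatively even where the combination marks it. Bases marked with Corin only contributed -5.37 Mb and with ATRA only -2.83 Mb. Over the whole genome, 23.4 Mb above additivity stood against -20.1 Mb below it, a net of 3.26 Mb. This net was 0.216 Mb with lists of equal peak number and 0.340 Mb when only peaks with −log10 q from 5 upwards were kept.

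Most combination-only bases extended regions that another list also marked. Of the 14.6 Mb, 5.01 Mb (34.3%) lay in regions with no peak of another list and 9.60 Mb in larger regions. The separate combination peaks were weak within their list, with a median −log10 q of 3.44 against 20.99 for its other peaks. Of them, 23.2% had a −log10 q of 5 or more.

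**Figure D2:**
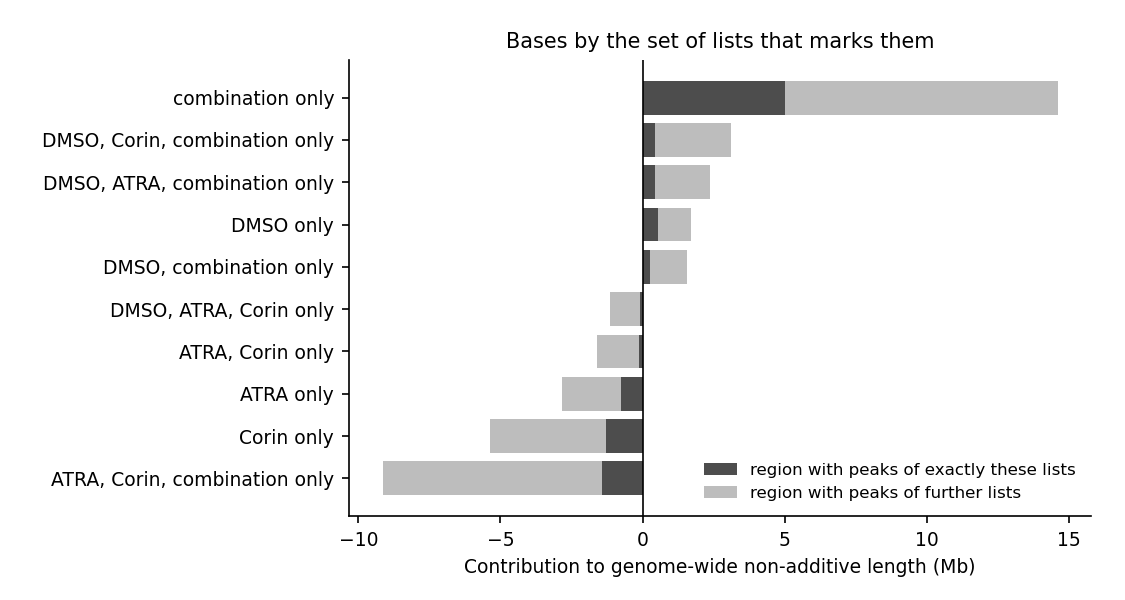
Contribution to genome-wide non-additive length (Mb, horizontal axis) of bases grouped by the lists that mark them; sets contributing nothing are not drawn. Combination-only bases add 14.6 Mb, of which 5.01 Mb (dark) lie in regions of that list alone, and bases shared by the 3 drug lists stand at -9.15 Mb.

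Non-additivity lay away from the start site itself. Within 1 kb of the start site the mean was -7.04 bp per gene, and the lists covered 51.2% to 52.6% of the bases there. From 1 to 5 kb it was 43.8 bp, or 5.47 bp per kb of window. It then declined to 4.13 bp per kb from 5 to 10 kb, 2.86 bp per kb from 10 to 25 kb and 2.25 bp per kb from 25 to 50 kb. Of the mean over all genes, 40.7% came from 25 to 50 kb away and 31.1% from 10 to 25 kb. From 1 to 5 kb, the combination list covered 21.1% of the bases, the Corin list 19.3%, the ATRA list 15.3% and the DMSO list 13.97%.

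**Figure D3:**
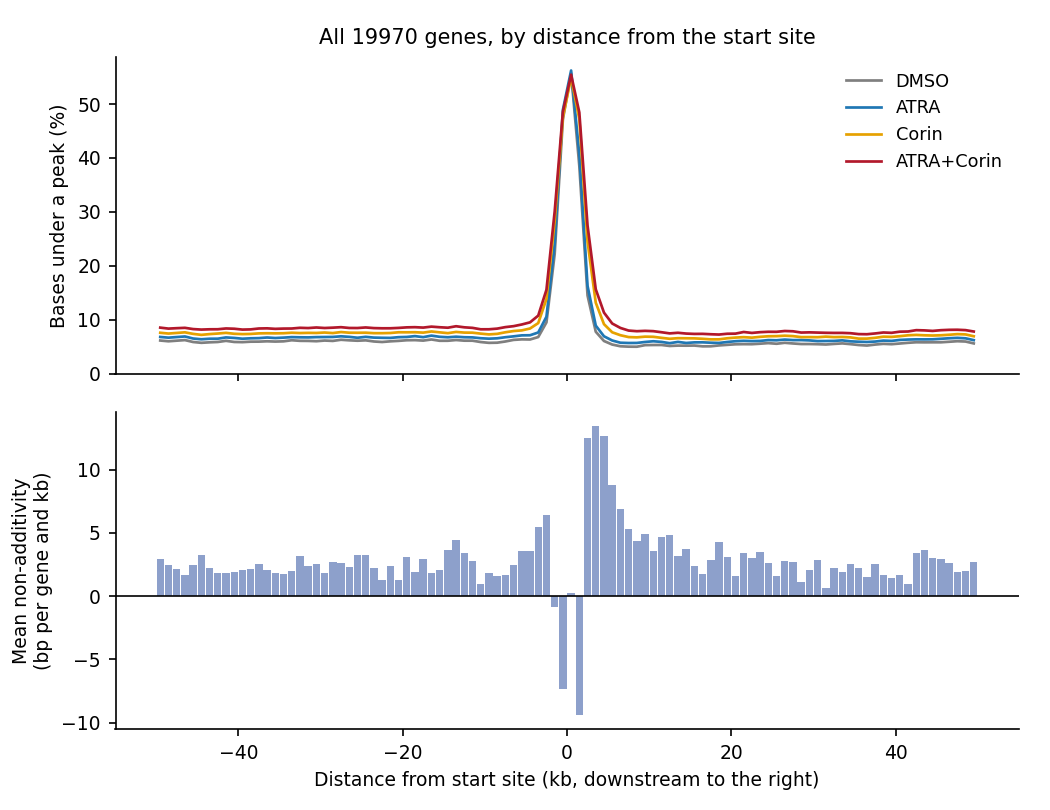
Top, share of bases under a peak (%) by distance from the start site (kb, 1 kb bins, downstream to the right) in each list over 19970 genes; bottom, mean non-additivity per gene in each bin (bp). The lists nearly coincide in the bins beside the start site, the bins a few kb downstream of it stand highest, and the bin from 1 to 2 kb downstream is the lowest. The start base itself was covered at 47.3% of genes with DMSO, 48.1% with ATRA, 38.0% with Corin and 38.0% with the combination.

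The highest and lowest 12 loci were then described, each by the gene with the most extreme value among start sites within 100 kb. Values give the length covered within 50 kb of the start site. The value at each was used to choose it, so the level is a description only. In a 10 kb window 4 of the 12 high and 5 of the 12 low loci were past 3000 bp in size with the same sign, and with 500 bp at each summit 6 and 3 were.

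The highest value was at SMOX, which encodes spermine oxidase (chromosome 20, 4120980 to 4187747, plus strand). Peaks covered 8538 bp with DMSO, 14746 bp with ATRA, 14176 bp with Corin and 40175 bp with the combination, 4.71 times the DMSO length. The 2 single drugs were alike and the combination stood 25429 bp above the higher of them, giving a non-additivity of 19791 bp. It was 4372 bp in a 10 kb window and 3175 bp with 500 bp at each summit. Of the 19 combination peaks there, 9 touched no peak of another list. The strongest lay in an intron of SMOX (chromosome 20, 4159656 to 4164601), where its fold enrichment over input was 10.5 and its −log10 q 36.1, both the authors' values.

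LILRA5 (chromosome 19, 54307070 to 54313166, minus strand) encodes an activating leukocyte immunoglobulin-like receptor of myeloid cells. Its window held 11751 bp with DMSO, 16067 bp with ATRA, 19248 bp with Corin and 39033 bp with the combination, a non-additivity of 15469 bp. The combination again stood above both single drugs, by 19785 bp over Corin. All 6 neighbouring genes within 100 kb were also past 3000 bp, among them the receptor genes LILRB2 at 11351 bp, LILRA4 at 11067 bp and LILRB5 at 8563 bp, whose windows share peaks with that of LILRA5. The strongest combination peak that touched no other list overlapped an exon of LILRB2 (chromosome 19, 54276986 to 54278601; −log10 q 25.1). Most pieces of the sequence printed for it occur more than once in the genome, so reads there can be hard to place, and the effect on the peak was not tested.

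APLP2, a relative of the amyloid precursor protein (chromosome 11, 130068147 to 130144811, plus strand), had 8889 bp, 13840 bp, 17010 bp and 34840 bp with DMSO, ATRA, Corin and the combination. Its non-additivity was 12879 bp, and 14 of its 29 combination peaks touched no other list. At OAS3, an oligoadenylate synthetase of the interferon response (chromosome 12, 112938051 to 112976460, plus strand), the lists covered 7293, 12186, 12831 and 28660 bp in the same order. Its non-additivity was 10936 bp, and OAS1 next to it had 9429 bp. The combination was 17830 bp above the higher single drug at APLP2 and 15829 bp above it at OAS3. At OAS3 the non-additivity was 1652 bp in a 10 kb window and 795 bp with 500 bp at each summit.

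MLXIPL (chromosome 7, 73593194 to 73624543, minus strand), the transcription factor ChREBP that responds to glucose, had 13344 bp with DMSO, 17748 bp with ATRA, 16227 bp with Corin and 31610 bp with the combination. ADIPOR2 (chromosome 12, 1688574 to 1788674, plus strand), an adiponectin receptor, had 9411, 12783, 14409 and 28695 bp in the same order. SCD (chromosome 10, 100347233 to 100364826, plus strand), the desaturase that makes oleate, had 17514, 18613, 22537 and 34363 bp. The combination was highest at each of these, and the non-additivities were 10979 bp, 10914 bp and 10727 bp. SLC2A5 (chromosome 1, 9035106 to 9088478, minus strand), a fructose transporter, had 18125, 23542, 20318 and 36361 bp and a non-additivity of 10626 bp, which turned to -397 bp in a 10 kb window and to -888 bp when each peak was replaced by 500 bp at its summit.

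Of the remaining 4 high loci, CD93 (chromosome 20, 23079360 to 23086324, minus strand), a C-type lectin-like receptor of monocytes and endothelium, started from 26326 bp with DMSO. It had 32705 bp with ATRA, 30059 bp with Corin and 47447 bp with the combination, a non-additivity of 11009 bp. ARHGEF2 (chromosome 1, 155946851 to 156007070, minus strand), an exchange factor for RhoA, had 27773, 35862, 30754 and 50238 bp. All 7 of its neighbours within 100 kb were past 3000 bp, and its own value was 11395 bp. SLA (chromosome 8, 133036728 to 133102912, minus strand), an adaptor that dampens receptor signalling in lymphocytes, had 21537, 33339, 28256 and 51410 bp and a non-additivity of 11352 bp. The value at SLA was 4544 bp with lists of equal peak number and 74 bp in a 10 kb window.

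At these 3 genes the ATRA list was above the Corin list. B4GALT5 (chromosome 20, 49632945 to 49713878, minus strand), a galactosyltransferase of glycolipid synthesis, had 15068, 26144, 26985 and 49675 bp. Its value of 11614 bp turned to -3792 bp in a 10 kb window and to -6361 bp with 500 bp at each summit, the lists holding 9, 21, 21 and 21 peaks there.

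**Figure D4:**
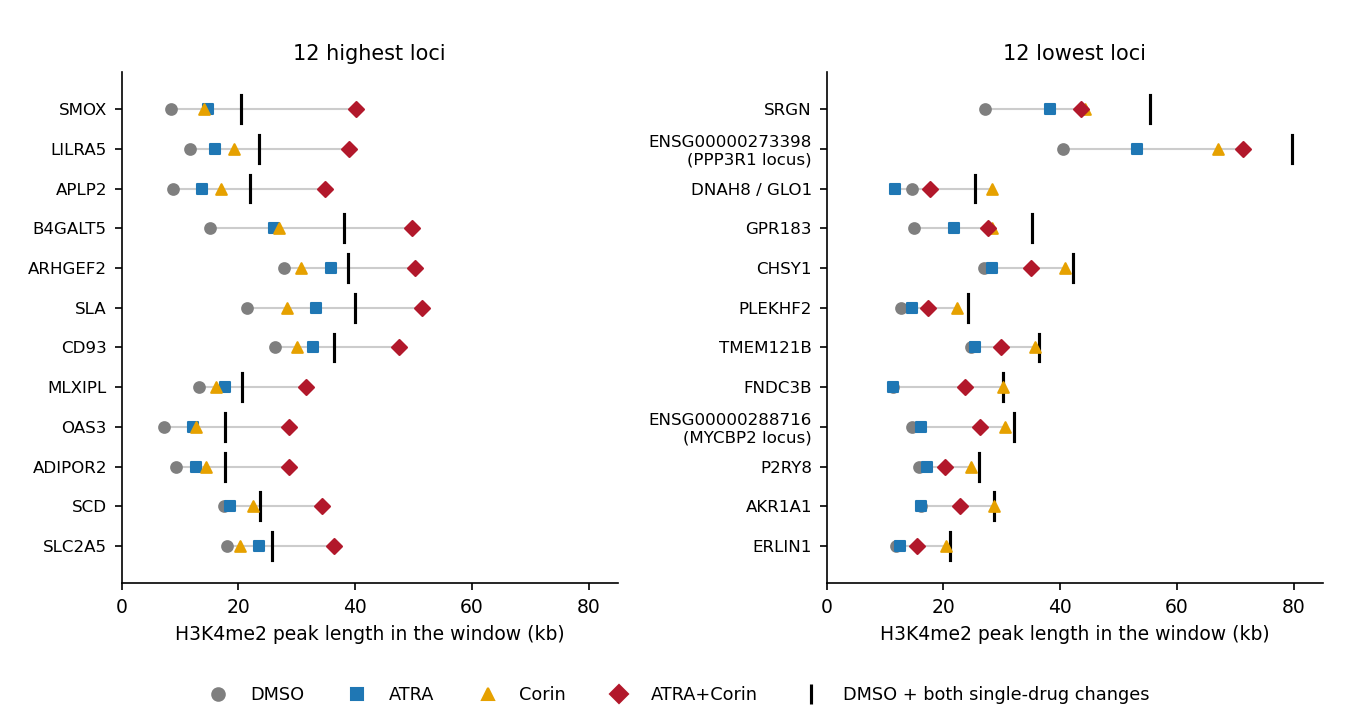
H3K4me2 peak length within 50 kb of the start site (kb, horizontal axis) in each list for the 12 highest (left) and 12 lowest (right) loci; each row is 1 gene and the black bar is DMSO plus both single-drug changes. The combination lies right of the bar on the left and left of it on the right; the sign turns under at least 1 alternative at B4GALT5, SLC2A5, ENSG00000273398, DNAH8, FNDC3B and AKR1A1.

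The choice of genes by this value favours a high combination and much combination-only length, so what follows describes the chosen genes and supports nothing. All 719 super-additive genes had more covered length with the combination than with either single drug. In 715 of them the combination was the highest of the 4 lists. The same held at 64.1% and 63.2% of all genes. Both single drugs were above DMSO at 513 (71.3%) of the super-additive genes, against 62.7% of all genes. Only Corin was above DMSO at 158 (22.0%), only ATRA at 22 (3.06%), and neither at 26 (3.62%). Over all genes these shares were 15.9%, 4.32% and 17.1%. Combination-only bases were the largest positive contribution at 697 of the 719 genes (96.9%). Their mean was 5470 bp per window, against 1097 bp over all genes.

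The lowest value was at SRGN (chromosome 10, 69088103 to 69104805, plus strand), which encodes serglycin, the core proteoglycan of secretory granules in blood cells. Peaks covered 27175 bp with DMSO, 38241 bp with ATRA, 44296 bp with Corin and 43568 bp with the combination. Both drugs alone were well above DMSO, and the combination minus Corin was -728 bp, giving a non-additivity of -11794 bp. Bases marked with every drug treatment but not DMSO contributed -8711 bp and Corin-only bases -4511 bp. VPS26A, a retromer subunit whose window overlaps, had -7498 bp.

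At GPR183 (chromosome 13, 99294539 to 99307399, minus strand), an oxysterol receptor that guides immune cell migration, the lists covered 15015, 21798, 28376 and 27680 bp in the order DMSO, ATRA, Corin and combination. The same order held as at SRGN, with the combination minus Corin at -696 bp and a non-additivity of -7479 bp. The next lowest locus after SRGN was ENSG00000273398, a gene without a symbol (chromosome 2, 68131238 to 68261230, minus strand) that overlaps PPP3R1, the regulatory subunit of calcineurin. Its window held 40439, 53213, 66968 and 71300 bp. There the combination was 4332 bp above Corin and the non-additivity was -8442 bp, with -11834 bp from bases shared by the 3 drug lists. In a 10 kb window this value turned to 872 bp.

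At the other 9 low loci, Corin-only bases were the main part, and at 8 of them ATRA alone was within 2000 bp of DMSO. CHSY1 (chromosome 15, 101175727 to 101252048, minus strand), a chondroitin synthase, had 26914 bp with DMSO, 28265 bp with ATRA, 40884 bp with Corin and 35066 bp with the combination. FNDC3B (chromosome 3, 172039578 to 172401669, plus strand) had 11412, 11321, 30300 and 23677 bp. At both genes ATRA was close to DMSO and the combination lay between DMSO and Corin, the combination minus Corin being -5818 bp and -6623 bp. The non-additivity was -7169 bp at CHSY1 and -6532 bp at FNDC3B, and the value at FNDC3B turned to 4042 bp with 500 bp at each summit.

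DNAH8 and GLO1 on chromosome 6 start near each other and had the same values. DNAH8 (38715311 to 39030792, plus strand) encodes an axonemal dynein and GLO1 glyoxalase I. Their windows held 14642 bp with DMSO, 11711 bp with ATRA, 28411 bp with Corin and 17754 bp with the combination. ATRA was below DMSO here, and the combination minus Corin was -10657 bp. The non-additivity of -7726 bp rested on -10666 bp of Corin-only bases and turned to 2926 bp with 500 bp at each summit. The Corin list had 11 peaks in this window and the combination 12.

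PLEKHF2 (chromosome 8, 95115642 to 95156698, plus strand), an endosomal protein, had 12763, 14630, 22380 and 17381 bp and a non-additivity of -6866 bp. TMEM121B (chromosome 22, 17116297 to 17121367, minus strand), next to the interleukin-17 receptor gene IL17RA, had 24777, 25482, 35725 and 29788 bp and -6642 bp. With 500 bp at each summit the value at PLEKHF2 was -151 bp. ENSG00000288716 (chromosome 13, 77326905 to 77326988, minus strand), whose start lies beside that of the ubiquitin ligase gene MYCBP2, had 14565, 16198, 30497 and 26205 bp and -5925 bp. The combination was again between DMSO and Corin at all 3.

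The last 3 were P2RY8, AKR1A1 and ERLIN1. P2RY8 (chromosome X, 1462581 to 1537185, minus strand), a receptor of the pseudoautosomal region, had 15865, 17288, 24686 and 20335 bp and -5774 bp. AKR1A1 (chromosome 1, 45550543 to 45570049, plus strand), an aldehyde reductase beside the peroxiredoxin gene PRDX1, had 16144, 16097, 28657 and 22843 bp. Its value of -5767 bp turned to 1452 bp with 500 bp at each summit. ERLIN1 (chromosome 10, 100150094 to 100186033, minus strand), a lipid raft protein of the endoplasmic reticulum, had 11816, 12512, 20521 and 15479 bp and -5738 bp. These 3 also had the combination between DMSO and Corin.

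The 153 sub-additive genes fell mainly into these 2 forms, which, like the order of the lists, follow in part from choosing genes by this value. Bases marked by all 3 drug lists and not by DMSO were the largest negative contribution at 74 genes (48.4%), and Corin-only bases at 64 genes (41.8%). Bases of the first kind count negatively however strong the combination signal is, because each list counts a base once. ATRA-only bases led at 4. Both single drugs were above DMSO at 142 of the 153 genes (92.8%), against 62.7% of all genes. The combination lay above both single drugs at 39 genes (25.5%). It lay between them or level with 1 of them at 89 (58.2%), and below both at 25 (16.3%). Over all genes these shares were 64.1%, 31.8% and 4.06%. The combination was below DMSO at 7 of the 153 genes (4.58%), against 6.34% of all genes.

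Genes of both kinds had much H3K4me2 to begin with. The median DMSO length was 14083 bp at super-additive and 13544 bp at sub-additive genes, against 5429 bp over all genes. Because DMSO enters the value, and a window with more peaks can vary more, this is partly built in. The SD of non-additivity was 705 bp at genes with under 5 kb in the DMSO list and 2210 bp at genes with 20 to 30 kb. The share of super-additive genes was 0.435% in the first class and 11.6% in the second, and that of sub-additive genes 0.0743% and 2.56%. Promoter composition differed little. In the 300 bp around the start site the median GC content was 65.7% at super-additive, 66.3% at sub-additive and 63.7% at all genes. The start site lay under a DMSO peak at 67.7% of super-additive, 64.1% of sub-additive and 47.3% of all genes, and under a combination peak at 60.9%, 51.0% and 38.0%.

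Gene lists tied to the drugs and cells were examined next. They were written with earlier results of these data known, so their values are descriptions. Over all genes, the median was 17 bp, 3.6% were super-additive and 0.766% sub-additive. The medians of the lists ran from -154 bp to 737 bp. Medians of 6 of the 8 lists changed sign under at least 1 alternative, the neuronal and interferon lists being the others.

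Of 20 genes of retinoid receptors and metabolism, 4 were super-additive and 0 sub-additive, with a median of 68 bp. DHRS3, a reductase that turns retinal back into retinol (chromosome 1, 12567910 to 12618210, minus strand), had 16419 bp with DMSO, 24052 bp with ATRA, 22309 bp with Corin and 35244 bp with the combination. Its non-additivity was 5302 bp, which was 1652 bp when only peaks with −log10 q from 5 upwards were kept and 2354 bp when list lengths were scaled. RXRA, the receptor partner (chromosome 9, 134317098 to 134440585, plus strand), had 19918, 18349, 19836 and 22814 bp and a value of 4547 bp. There both single drugs were below DMSO and only the combination was above it. The value at RXRA was 585 bp in a 10 kb window and 1034 bp with 500 bp at each summit. The others past 3000 bp were the receptors RARA at 3693 bp and RARG at 3335 bp, named after their values were seen. Among peaks with −log10 q from 5 upwards, none of the 20 reached 3000 bp. With lists of equal peak number 1 of the 20 did, and with scaled list lengths 1. The lowest were RDH10, a retinol dehydrogenase, at -1689 bp and the binding protein gene CRABP1 at -1491 bp, which turned to 1000 bp and 571 bp with 500 bp at each summit.

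Among 15 ATRA-induced targets, 1 was super-additive and 2 were sub-additive, with a median of 737 bp that turned to -819 bp when list lengths were scaled. With scaled list lengths 3 were sub-additive, and with lists of equal peak number 3. ASB2, a ubiquitin ligase subunit induced by ATRA in leukaemia cells (chromosome 14, 93934166 to 93976739, minus strand), had 12523, 14271, 16086 and 22456 bp and 4622 bp, which turned to -931 bp with 500 bp at each summit. CEBPE, a granulocyte transcription factor, followed at 2812 bp, and had -457 bp in a 10 kb window and -187 bp with 500 bp at each summit. IRF1, an interferon response factor (chromosome 5, 132440440 to 132508719, minus strand), had 11380 bp with DMSO, 17190 bp with ATRA, 15291 bp with Corin and 17987 bp with the combination. The combination there was only slightly above ATRA, giving -3114 bp, and 3500 bp with 500 bp at each summit. At HIC1, a transcriptional repressor (chromosome 17, 2054154 to 2063241, plus strand), ATRA had 26037 bp and the combination 24661 bp, against 16126 bp with DMSO and 17754 bp with Corin. Its value of -3004 bp turned to 1881 bp in a 10 kb window and to 464 bp with 500 bp at each summit.

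Of 27 monocyte and granulocyte differentiation genes, 4 were super-additive and 2 sub-additive, with a median of -154 bp. With scaled list lengths 4 were super-additive and 4 sub-additive. CD86, a costimulatory ligand (chromosome 3, 122055362 to 122121139, plus strand), had 6740 bp with DMSO, 7524 bp with ATRA, 12740 bp with Corin and 21240 bp with the combination. Its value of 7716 bp stayed past 3000 bp under all of the alternatives except 500 bp at each summit, where it was 1368 bp. SPI1, which encodes the myeloid factor PU.1 (chromosome 11, 47354860 to 47378547, minus strand), had 22730, 24377, 28780 and 37421 bp and 6994 bp. Its value was 2244 bp in a 10 kb window and 0 bp with 500 bp at each summit. CEBPB, a transcription factor of monocytes named after its value was seen, had 5392 bp. At the other end were CSF1R, the receptor for macrophage colony-stimulating factor, at -3530 bp and LYZ, lysozyme, at -3467 bp. In a 10 kb window CSF1R had -2889 bp and LYZ -2498 bp, and with 500 bp at each summit -597 bp and -885 bp. For CSF1R (chromosome 5, 150053291 to 150113372, minus strand) the lists covered 9473, 14906, 15549 and 17452 bp, each drug alone adding over 5000 bp and the combination 7979 bp. For LYZ (chromosome 12, 69348381 to 69354234, plus strand) they covered 12420, 13835, 22642 and 20590 bp, the combination lying below Corin.

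The 24 interferon-stimulated genes held 4 super-additive and 0 sub-additive members, with a median of 733 bp. In a 10 kb window 1 was super-additive (median 176 bp), with 500 bp at each summit 0 (247.5 bp), and 2 when only peaks with −log10 q from 5 upwards were kept (351 bp). With lists of equal peak number 3 were super-additive, and with scaled list lengths 2. OAS1, OAS2 and OAS3 share 1 locus, and OAS2, named after its value was seen, was just past the limit at 3009 bp. IFIT2 at -1425 bp, which turned to 379 bp in a 100 kb window, and IFI27 at -1213 bp were lowest. Of 14 leukaemia stem and progenitor genes, only HOXA9 was past 3000 bp, at 3250 bp, and its value turned to -1106 bp when only peaks with −log10 q from 5 upwards were kept and to -798 bp with lists of equal peak number. HOXA10 overlaps its window and had 2981 bp, with the same turns. With scaled list lengths 2 of the 14 were super-additive and 1 sub-additive. BCL2 (-2828 bp) and CD44 (-1555 bp) were lowest, but had 1500 bp and 1000 bp with 500 bp at each summit, and CD44 had 158 bp in a 10 kb window.

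None of the 21 genes of the CoREST and p300 machinery passed either limit. With scaled list lengths 1 of them was sub-additive. EP300, which encodes p300, was among the lowest at -1288 bp, turning to 561 bp in a 10 kb window and to 420 bp with 500 bp at each summit, and GSE1 at 2669 bp and the co-activator NCOA3 at 2964 bp were the highest. None of the 20 neuronal genes repressed through REST and CoREST passed either limit, from CHRM4 at -1570 bp and CPLX1 at -1291 bp to NEFL at 553 bp and L1CAM at 1422 bp. CHRM4 turned to 660 bp in a 10 kb window and CPLX1 to 500 bp with 500 bp at each summit. The median window of the neuronal genes held little H3K4me2, 903 bp in the DMSO list and 2609 bp in the combination list. Over all genes the median DMSO length was 5429 bp. The list was mixed, and CHRM4 (15989 bp with DMSO) and L1CAM (14773 bp) were above that. Of 77 cytoplasmic ribosomal protein genes, which are active in every cell, 2 were super-additive (RPS9 at 3814 bp and RPS19 at 3637 bp) and RPL19 (-3488 bp) was sub-additive. With lists of equal peak number, and also with scaled list lengths, 1 was super-additive and 1 sub-additive. With 500 bp at each summit RPS9 had -539 bp, RPS19 -1476 bp and RPL19 -37 bp.

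**Figure D5:**
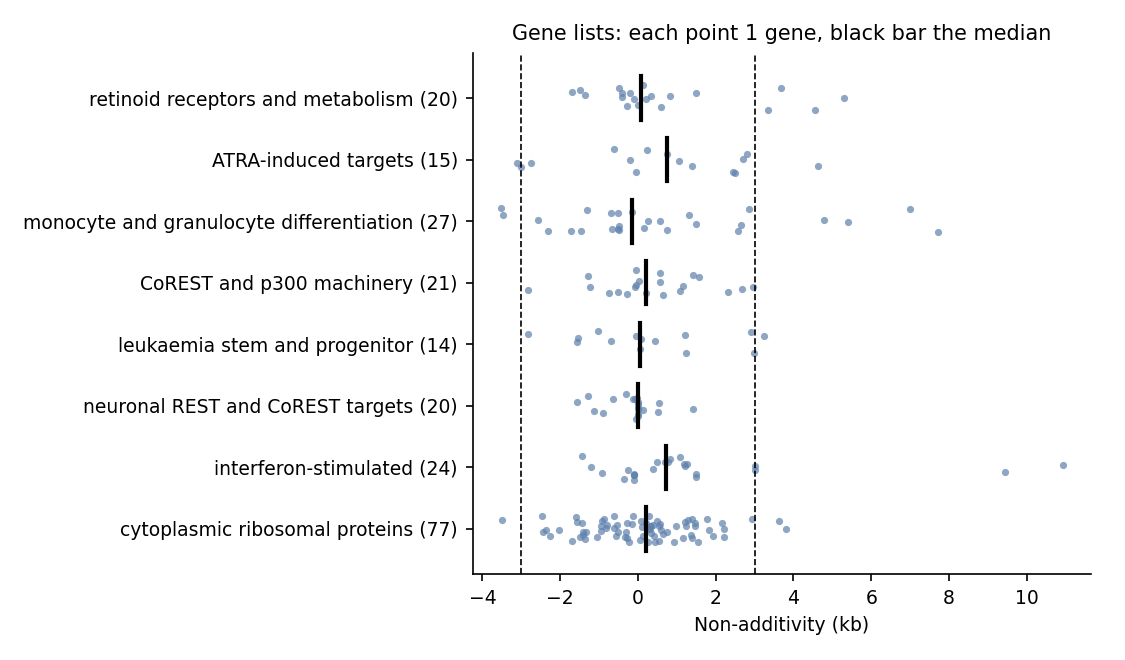
Non-additivity (kb, horizontal axis) of each gene in 8 gene lists, with the number of genes in brackets; black bars are medians and dashed lines mark -3 and 3 kb. Medians run from -154 bp to 737 bp, and the points farthest out are OAS3 and OAS1. Medians of 6 lists change sign under at least 1 alternative.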

How the data were processed

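H3K4me2 chromatin immunoprecipitation and input libraries were sequenced as paired-end reads, per the labels' protocols. Groups came from the sample titles. The submitters' processing notes name Trimmomatic, Bowtie2, Picard, MACS2 and the build hg38, without versions or thresholds. The authors deposited 1 peak list per treatment, and 0 peaks ended past an hg38 chromosome. Besides positions, each deposited peak has a score capped at 1000, a fold enrichment (ratio) over input, and a −log10 q, all from the authors. Positions gave the covered length, and −log10 q filtered peaks within a list. Peak numbers, which follow the authors' p, ranked them, and 16 to 22 of the 30000 lowest numbers are missing from each list; such peaks were not analysed.

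Start sites were those of the Ensembl canonical transcripts in GENCODE release 44. Peaks of a list were merged and their length summed within 50 kb either side of each start site (Python 3.11.15, numpy 2.4.6, pandas 2.3.3, pysam 0.24.0 for sequence). The computation was checked on made-up peaks. The named genes were the 12 highest and 12 lowest with start sites over 100 kb apart, ties taken by symbol, and the 2 highest and 2 lowest of each gene list. A few of these genes and 1 sequence are not reported here. Members and lists were chosen with earlier results of these data known. Alternatives were windows of 10 and 100 kb, peaks with −log10 q from 5 upwards, equal peak numbers (65172 per list), 500 bp at each summit, scaled list lengths, 1 gene per locus, a log2 ratio with 1000 bp added to each length, and, added after the data were examined, peaks less than 1 kb apart joined.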

Additional observations from a re-analysis of the deposited data

How the results depend on the processing

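No paired analysis was possible because the 2 libraries of a treatment stand in 1 list, and neither could be left out for the same reason. The median over genes, 17 bp, was 0 in a 10 kb window, with a −log10 q of at least 5, with the same number of peaks per list, with 500 bp at each summit, with scaled list lengths, with 1 gene per locus and on the log2 ratio scale. It was 169 bp in a 100 kb window and 56 bp with peaks under 1 kb apart joined. Genes with no peak in any list count as 0 in these medians. Without them the main median was 147 bp, over 17707 genes. On the log2 ratio scale 9107 genes lay above 0 and 8600 below it, against 10153 and 7546 in bp. The count of 719 super-additive genes became 94 in a 10 kb window, 1668 in a 100 kb window, 458 with 500 bp at each summit, 1252 with joined peaks, 469 with scaled lengths and 264 of 9000 with 1 gene per locus. The count of 153 sub-additive genes became 20, 392, 288 with a −log10 q of at least 5, 253 with equal peak numbers, 317 with joined peaks, 253 with scaled lengths and 69 with 1 gene per locus. For 1 gene per locus, a gene was kept when its start site lay over 100 kb from that of the last kept gene. This differs from the joining of start sites that gave 350 and 104 loci. The net length of 3.26 Mb became 0.340 Mb with a −log10 q of at least 5, 0.216 Mb with equal peak numbers and, by construction, 0 with scaled lengths. Of the 719 super-additive genes, 700 stayed above 0 with a −log10 q of at least 5, 718 with scaled lengths and 563 with 500 bp at each summit, but only 411, 427 and 146 stayed past 3000 bp. Of the 153 sub-additive genes, 153, 153 and 87 stayed below 0, and 94, 142 and 15 past -3000 bp.

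All 24 named loci kept their sign in a 100 kb window, with equal peak numbers, with joined peaks and with scaled lengths. They also did so with a −log10 q of at least 5 and as a log2 ratio. The loci were chosen by this value and the alternatives use the same peaks, so kept signs are partly built in. As a log2 ratio the 12 high loci ran from 0.100 (B4GALT5) to 0.717 and the 12 low loci from -0.544 to -0.284. In a 10 kb window the 12 high loci ran from -3792 to 4540 bp and the 12 low loci from -5432 to 872 bp, and with 500 bp at each summit from -6361 to 6956 bp and from -7678 to 4042 bp. Sign changes came in a 10 kb window (B4GALT5 -3792 bp, SLC2A5 -397 bp, ENSG00000273398 872 bp) and with 500 bp at each summit (B4GALT5 -6361 bp, SLC2A5 -888 bp, DNAH8 2926 bp, FNDC3B 4042 bp, AKR1A1 1452 bp). A list median changed sign for ribosomal proteins (-199 bp at 10 kb, -18 bp with a −log10 q of at least 5, -48 bp with equal peak numbers), for monocyte and granulocyte genes (357 bp at 100 kb, 240 bp with joined peaks) and for leukaemia stem and progenitor genes (-689 bp at 100 kb, -1106 bp with a −log10 q of at least 5, -798 bp with equal peak numbers). It also did so for retinoid genes (-46.5 bp with equal peak numbers, -106 bp with scaled lengths), ATRA-induced targets (-819 bp with scaled lengths) and CoREST and p300 genes (-52.7 bp with scaled lengths). The cause was not tested.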

Other observations

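The chromosomes differed in their share of super-additive genes. It was highest on chromosome 19 (7.99%, 118 of 1476 genes), chromosome 15 (6.32%) and chromosome 20 (5.31%) and lowest on chromosome X (0.931%, 8 of 859 genes) and chromosome 13 (1.24%). Chromosome 13 had the highest share of sub-additive genes, 2.17% (7 of 323), and was with chromosome 21 one of those with a mean below 0 (-75.5 bp and -19.7 bp). Genes close together share windows, so these shares do not count independent loci.

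TGM2, transglutaminase 2, a known ATRA target (chromosome 20, 38127385 to 38166578, minus strand), was chosen here after earlier results were seen. Its window held 7948 bp with DMSO, 16170 bp with ATRA, 11961 bp with Corin and 21587 bp with the combination. Its non-additivity of 1404 bp was 7840 bp in a 100 kb window, 4383 bp with 500 bp at each summit, -1080 bp with scaled list lengths, -2536 bp with lists of equal peak number and -2976 bp when only peaks with −log10 q from 5 upwards were kept. NR1H2, the oxysterol receptor LXR beta, was among the genes past 10000 bp outside the named loci, with 16481, 20859, 23356 and 37747 bp and a value of 10013 bp.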
